A study of Homo sapiens with 8 samples.

Results

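The promoters of the 4 genes that make and carry hypusine, DHPS, DOHH, EIF5A and EIF5A2, were followed through an OGAP-seq experiment, which pulls down DNA fragments that carry oxidative base damage before sequencing. They are 4 of 19957 promoter windows in the deposited table. DHPS was picked because its reads differed between depleted and wild-type pull-downs in these data. DOHH, EIF5A and EIF5A2 were added because they act in the same pathway. The cells were RPE1, an hTERT-immortalised human line from retinal pigment epithelium. There were 4 groups of 2 libraries. KD OGAP and KD input came from cells with NuMA (TDIF) knocked down, NuMA being a nuclear and spindle-pole protein, and these cells were taken after doxycycline. WT OGAP and WT input came from wild-type cells that had received none, and the effects of doxycycline and of depletion cannot be told apart. The labels do not name the knockdown construct, or say whether a clone was used or whether the libraries of a group were separate cultures. The p-values therefore rest on library-to-library spread, part or all of which may be technical.

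Hypusine is an unusual amino acid formed on a single lysine of the translation factor eIF5A. DHPS, deoxyhypusine synthase, moves a butylamine group from spermidine onto that lysine, and DOHH, deoxyhypusine hydroxylase, completes the residue. EIF5A encodes the widely expressed substrate, which helps ribosomes through difficult stretches such as runs of proline. EIF5A2 encodes a paralogue with narrower expression. The values here are reads of DNA around gene starts. They carry no information on RNA or protein of these genes, or on hypusine itself.

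Guanine is the base of DNA that oxidises most readily, so the stretch just upstream of each gene start is shown for its guanine content. Each line gives the 250 bases before the RefSeq start (GRCh38.p14), 5′ to 3′ on the gene's strand, with runs of at least 3 G or 3 C in capitals.
DHPS: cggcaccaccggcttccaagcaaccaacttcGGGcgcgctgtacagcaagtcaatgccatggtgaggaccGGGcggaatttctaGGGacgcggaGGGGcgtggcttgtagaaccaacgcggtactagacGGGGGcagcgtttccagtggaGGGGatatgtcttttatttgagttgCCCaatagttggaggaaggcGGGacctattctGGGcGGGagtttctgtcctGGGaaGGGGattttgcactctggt
DOHH: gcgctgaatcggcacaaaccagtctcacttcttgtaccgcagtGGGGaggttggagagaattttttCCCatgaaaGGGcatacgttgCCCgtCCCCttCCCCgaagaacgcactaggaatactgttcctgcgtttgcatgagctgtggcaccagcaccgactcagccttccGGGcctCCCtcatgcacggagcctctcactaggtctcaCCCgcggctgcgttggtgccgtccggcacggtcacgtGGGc
EIF5A: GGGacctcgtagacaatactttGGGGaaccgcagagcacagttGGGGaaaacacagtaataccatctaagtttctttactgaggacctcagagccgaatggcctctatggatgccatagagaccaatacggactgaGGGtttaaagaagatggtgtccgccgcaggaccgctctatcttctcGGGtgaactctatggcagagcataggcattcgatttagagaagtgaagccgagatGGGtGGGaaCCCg
EIF5A2: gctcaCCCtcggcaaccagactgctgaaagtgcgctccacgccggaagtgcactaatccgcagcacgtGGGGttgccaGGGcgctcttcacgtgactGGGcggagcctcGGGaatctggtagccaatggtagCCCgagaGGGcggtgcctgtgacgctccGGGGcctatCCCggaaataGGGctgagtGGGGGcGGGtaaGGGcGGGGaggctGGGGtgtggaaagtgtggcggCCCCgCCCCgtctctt
The DHPS stretch lies at chr19:12681371-12681620 (minus strand) and the DOHH stretch at chr19:3500675-3500924 (minus strand). The EIF5A stretch lies at chr17:7306749-7306998 (plus strand) and the EIF5A2 stretch at chr3:170908638-170908887 (minus strand). The RefSeq gene extent of DHPS reaches 510 bp further than the start used, so its stretch lies within that extent. EIF5A has 6 starts in the promoter table, of which the nearest to the window centre is shown. GC content was 57.6% for DHPS, 60.0% for DOHH, 50.8% for EIF5A and 66.8% for EIF5A2, where the median of 34943 RefSeq promoters of this length was 58.0%. DHPS held 12 runs of G or C, 11 of them G on the strand shown, against 10 in DOHH, 8 in EIF5A and 17 in EIF5A2 (median of all promoters, 11). DHPS was thus near the middle of promoters in both measures, and EIF5A2 was the richest of the 4. The GC box core GGGCGG was searched on both strands (CCGCCC on the other). It occurred 2 times in DHPS, 5 times in EIF5A2 and in neither DOHH nor EIF5A, and 42.5% of promoters held it. The E-box CACGTG, its own reverse complement, occurred 1 time in DOHH and 2 times in EIF5A2 (6.32% of promoters). The CCAAT box (ATTGG on the other strand) occurred 1 time each in DHPS, EIF5A and EIF5A2 (32.0% of promoters). Sites of different motifs were counted apart, whether or not they overlapped, and a match is a description of the letters only.

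The counting windows were 2001 bp long. Those of DHPS (ENSG00000095059, hg38 chr19:12680903-12682903) and DOHH (ENSG00000129932, chr19:3499941-3501941) lie on chromosome 19. Those of EIF5A (ENSG00000132507, chr17:7305998-7307998) and EIF5A2 (ENSG00000163577, chr3:170907694-170909694) lie on chromosomes 17 and 3. The start used lay 533 bp from the window centre for DHPS, whose gene extent ends 23 bp from the centre, 267 bp for DOHH, 1 bp for EIF5A and 57 bp for EIF5A2, so that each window takes in sequence on both sides of the start. None of the 4 overlaps another window, and all 4 passed the filter on low counts that left 17130 windows for testing. Promoter reads per library were 560174 and 449833 in KD OGAP, 368593 and 397173 in WT OGAP, 683567 and 645276 in KD input, and 727901 and 771138 in WT input. At this depth a member window held 8 to 80 reads in a library. Replicates differed by more than counting noise in every group (chi-square per degree of freedom 1.90 to 2.14). Across tested windows, log2 levels of the KD OGAP libraries correlated with the 4 inputs at r = 0.59 to 0.61 for replicate 1 and 0.47 to 0.50 for replicate 2. The WT OGAP libraries gave 0.41 to 0.43 and 0.35 to 0.39. These are correlations over windows, which are not independent. NUMA1, the depleted gene, had 11 and 4 reads in KD OGAP, 6 and 5 in WT OGAP, 8 and 16 in KD input, and 2 and 1 in WT input, in a window that overlaps another. It counts DNA and so does not check the depletion.

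DHPS stood out in a single group. It held 34 and 42 reads in KD OGAP, 75 and 80 in WT OGAP, 44 and 57 in KD input, and 48 and 47 in WT input. As TMM-scaled CPM, counts scaled to a common number of promoter reads, this was 61.3 and 94.8 in KD OGAP, 213 and 211 in WT OGAP, 63.4 and 86.8 in KD input, and 65.1 and 61.0 in WT input. Both WT OGAP libraries were high and agreed closely, and the other 6 libraries lay together at lower levels. The higher WT OGAP library was 1.01 times the lower, and 98.1% of tested windows had as large a ratio. Few windows had so close a pair, so the SD of this pair is no measure of precision. The WT OGAP mean of 212 ± 1.17 CPM (SD, n = 2) ranked 20 of all 19957 windows. The KD OGAP mean of 78.0 ± 23.7 CPM ranked 2517, the KD input mean of 75.1 ± 16.6 ranked 2416 and the WT input mean of 63.0 ± 2.92 ranked 6147. The median window had 51.9 CPM in KD OGAP, 48.0 in WT OGAP, 51.6 in KD input and 50.8 in WT input.

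**Figure D1:**
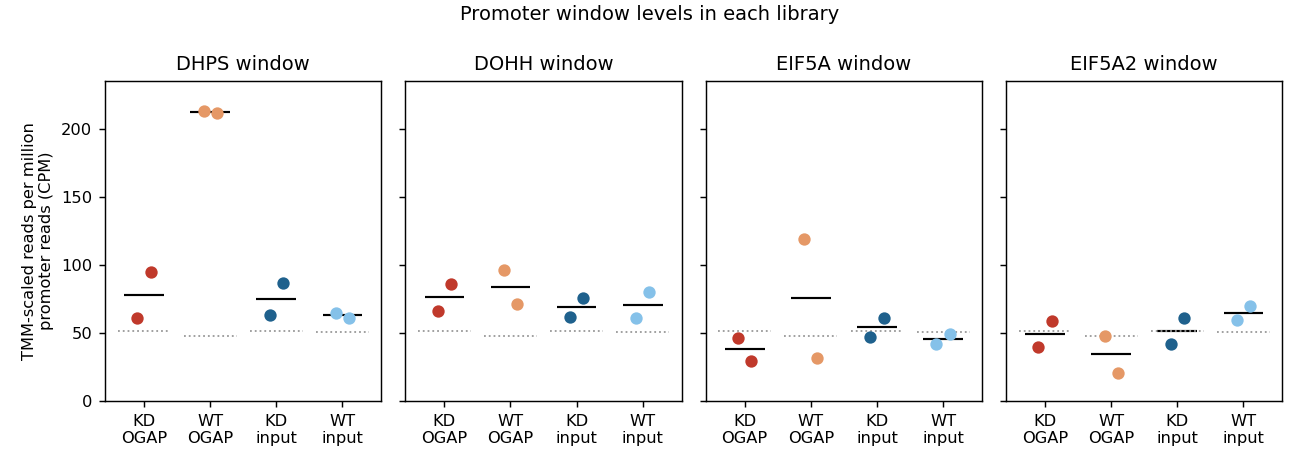
Level of each of the 4 promoter windows in TMM-scaled CPM, by group, with points for the libraries, a bar at the mean of 2 and a dotted line at the median of all windows. DHPS lies at 213 and 211 in WT OGAP and between 61.0 and 94.8 in the other 6 libraries, and EIF5A is spread from 31.7 to 119 within WT OGAP.

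Between KD OGAP and WT OGAP, DHPS had a log2 change of -1.46 ± 0.29 (SE). This contrast chose DHPS, so the value is a description and no test is given for it. It was 1 of 4 members past an adjusted p of 0.05, where 0.035% of all tested windows (6) passed. Nothing is read from that count. The KD OGAP libraries lay below the WT OGAP libraries without overlap, as they did for 19.9% of tested windows, and the WT OGAP libraries lay above the WT inputs, as in 28.5% of windows. The same libraries enter the next values, which are likewise descriptions. OGAP over input was 0.04 ± 0.31 for DHPS in KD and 1.75 ± 0.28 in WT on the log2 scale, and the difference between these was -1.71 ± 0.42. Of all tested windows, 98.0% had a lower WT OGAP over input log2 change than DHPS. The input libraries are not part of the contrast that chose DHPS, though in the fit they share its estimate of spread. Between the inputs, KD over WT gave 0.25 ± 0.30 (95% confidence interval -0.34 to 0.84, adjusted p = 0.999, edgeR), and the libraries overlapped.

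The other enzyme and the substrates did not pass the threshold in any comparison. DOHH held 37 and 38 reads in KD OGAP, 34 and 27 in WT OGAP, 43 and 50 in KD input, and 45 and 62 in WT input. In CPM it had 66.7 and 85.8 in KD OGAP, 96.6 and 71.3 in WT OGAP, 61.9 and 76.2 in KD input, and 61.0 and 80.4 in WT input. The DOHH libraries of the groups overlapped in all comparisons. On the log2 scale KD over WT was -0.14 ± 0.34 in OGAP (95% confidence interval -0.82 to 0.53, adjusted p = 0.915, edgeR) and -0.04 ± 0.31 in input (adjusted p = 0.999). OGAP over input was 0.13 ± 0.32 in KD (adjusted p = 0.906) and 0.24 ± 0.33 in WT (adjusted p = 0.668).

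EIF5A, the main substrate gene, held 26 and 13 reads in KD OGAP, 42 and 12 in WT OGAP, 33 and 40 in KD input, and 31 and 38 in WT input. Its CPM were 46.9 and 29.3 in KD OGAP, 119 and 31.7 in WT OGAP, 47.5 and 60.9 in KD input, and 42.0 and 49.3 in WT input. A single library, WT OGAP replicate 1, was high, and the other WT OGAP library lay among the KD OGAP values. The higher WT OGAP library was 3.76 times the lower, and 2.27% of tested windows had as large a ratio. KD over WT in OGAP was -0.94 ± 0.42 on the log2 scale (95% confidence interval -1.78 to -0.11, adjusted p = 0.406, edgeR). It was 0.29 without WT OGAP replicate 1 and -1.62 without WT OGAP replicate 2, so the direction rests on the first of these libraries. OGAP over input in WT was 0.71 ± 0.39 (adjusted p = 0.222). It was -0.54 without WT OGAP replicate 1, and 1.38 and past the threshold without replicate 2 (adjusted p = 0.0233). The KD OGAP libraries lay below the KD inputs without overlap, as in 19.6% of windows, with a log2 change of -0.48 ± 0.41 (adjusted p = 0.668). In input, KD over WT was 0.24 ± 0.37 (adjusted p = 0.999).

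EIF5A2, the paralogue, held 22 and 26 reads in KD OGAP, 17 and 8 in WT OGAP, 29 and 40 in KD input, and 44 and 54 in WT input. The CPM were 39.6 and 58.7 in KD OGAP, 48.3 and 21.1 in WT OGAP, 41.8 and 60.9 in KD input, and 59.7 and 70.1 in WT input. By mean EIF5A2 was lowest in WT OGAP, the group in which DHPS was highest. Its WT OGAP replicate 1 lay above replicate 1 of KD OGAP and of KD input. Its WT OGAP libraries lay below both WT inputs, as in 28.0% of windows, with a log2 change of -0.91 ± 0.41 (95% confidence interval -1.74 to -0.09, adjusted p = 0.127, edgeR). This was -1.62 without WT OGAP replicate 1 and -0.43 without WT OGAP replicate 2. KD over WT was 0.50 ± 0.45 in OGAP (95% confidence interval -0.39 to 1.38, adjusted p = 0.728) and -0.34 ± 0.35 in input (adjusted p = 0.999). The OGAP value was 1.19 without WT OGAP replicate 1 and 0.01 without WT OGAP replicate 2. OGAP over input in KD was -0.08 ± 0.38 (adjusted p = 0.958). Whether the EIF5A and EIF5A2 windows share sequence was not examined, and how reads that map to several places were counted is not given in the sources used here.

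**Figure D2:**
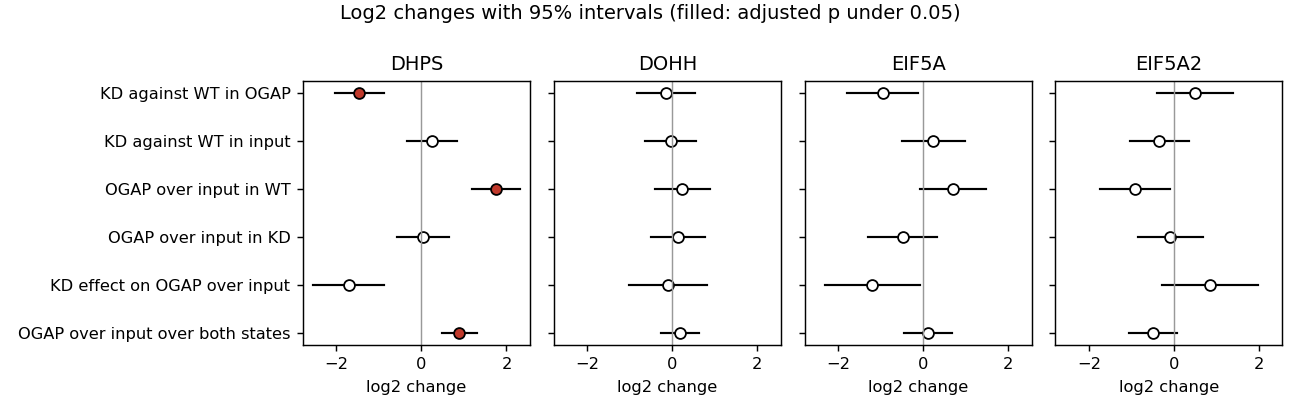
Log2 change of each of the 4 windows in each of the 6 comparisons, with points at the edgeR estimate, filled where the adjusted p is under 0.05, and bars for the 95% confidence interval, which are no test for DHPS except between the inputs. DHPS, chosen from the contrast of KD with WT in OGAP, lies at -1.46 there and at 1.75 for OGAP over input in WT, while it lies at 0.25 between the inputs.

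The order of the members was the same in WT OGAP and KD input, and differed in KD OGAP and in WT input. By mean CPM the order in KD OGAP was DHPS (78.0), DOHH (76.2), EIF5A2 (49.2) and EIF5A (38.1). In WT OGAP it was DHPS (212), DOHH (84.0), EIF5A (75.5) and EIF5A2 (34.7). KD input gave DHPS (75.1), DOHH (69.1), EIF5A (54.2) and EIF5A2 (51.4), and WT input gave DOHH (70.7), EIF5A2 (64.9), DHPS (63.0) and EIF5A (45.7). All windows have the same length, so levels can be set side by side. Neighbours in these orders whose libraries did not overlap were DHPS above DOHH in WT OGAP and DOHH above EIF5A2 in KD OGAP. In the inputs they were DOHH above EIF5A in KD and DHPS above EIF5A in WT. The libraries of all other neighbours in these orders overlapped.

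Across the 2 states together, OGAP over input asked which promoters the pull-down favoured regardless of depletion. DHPS averaged 0.89 ± 0.21 on the log2 scale, a value carried by the WT OGAP libraries that set it apart. DOHH had 0.19 ± 0.23 (adjusted p = 0.616), EIF5A 0.11 ± 0.28 (adjusted p = 0.821) and EIF5A2 -0.49 ± 0.28 (adjusted p = 0.226, edgeR). The difference between states, KD minus WT, was -0.11 ± 0.46 for DOHH (adjusted p = 0.97), -1.19 ± 0.56 for EIF5A (adjusted p = 0.594) and 0.84 ± 0.57 for EIF5A2 (adjusted p = 0.729). Without WT OGAP replicate 1 the EIF5A value was 0.04 and the EIF5A2 value 1.54, and without WT OGAP replicate 2 they were -1.86 and 0.34. Past the threshold were 1 of 4 members for OGAP over input over both states (17.7% of all tested windows), 1 of 4 in WT (13.7%), 0 of 4 in KD (0.736%) and 0 of 4 in the difference between states (0.00584%). The member that passed was DHPS in both cases, and nothing is read from it, since the WT OGAP and KD OGAP libraries chose it. At an unadjusted edgeR p under 0.05 the counts were 0 of 4 members for OGAP over input in KD (12.6% of windows) and 2 of 4 for the difference between states (8.14%), and DESeq2 called 0 in each. The 2 were DHPS, which libraries in this difference chose, and EIF5A, whose value rests on WT OGAP replicate 1. Nothing is read from that count either. Between the inputs 0 of 4 members and 0.0% of windows passed in edgeR. There, 0 members and 756 windows (4.41%) had an unadjusted p under 0.05, and DESeq2 called none. Exact two-sided permutation tests of the 4 OGAP against the 4 input libraries, run for all 4 members, gave p = 0.286 for DOHH, 0.971 for EIF5A and 0.143 for EIF5A2, where 0.0286 is the smallest p possible.

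Base composition moved with the pull-down over all promoters. GC content here is that of the 250 bases before the start, and not of the 2001 bp window. For DHPS those bases lie within the RefSeq gene extent, which limits its placing in a class. Over 10664 windows with a RefSeq promoter, GC content and the WT OGAP over input log2 change had r = -0.35, across windows that share the same 8 libraries. With the windows ranked by GC content and cut into 5 classes, the median change was 0.10 in the class of 50.8 to 59.2% GC, which holds DHPS and EIF5A. It was -0.08 at 59.6 to 65.6%, where DOHH lies, and -0.25 at 66.0 to 72.4%, where EIF5A2 lies. DHPS at 1.75 and EIF5A at 0.71 lay above the median of their class, DOHH at 0.24 above its own, and EIF5A2 at -0.91 below its own. The part of base composition in these values was not tested. The correlation with GC content was 0.06 for KD against WT in OGAP, -0.23 for KD against WT in input and 0.19 for the difference between states.

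The windows around DHPS served as its background. Within 500 kb on chromosome 19 there were 45 other windows, of which 35 were tested and 16 overlap another. In KD against WT in OGAP their median log2 change was -0.37, against 0.01 over all tested windows, with a range of -1.09 to 0.50. Of the 35, 10 lay above 0 and 25 below. All lay above DHPS, which was chosen from this contrast, so its place among them is a description. None passed the threshold in edgeR or in DESeq2, and 5 of 35 had an unadjusted edgeR p under 0.05 (10.6% of all windows). Between the inputs the median was -0.11 and none passed (1 with an unadjusted p under 0.05, none by DESeq2). OGAP over input had a median of 0.07 in KD, where none passed, and 0.52 in WT, where 7 passed as higher and 2 as lower. Together these were 25.7% of the 35, and of all windows 9.25% passed as higher and 4.45% as lower. DESeq2 called 2 of the 35 (5.71%) and 5.16% of all windows. Each of the 7 higher calls also ended when any of 2 to 4 single libraries was left out. All 35 were below DHPS in WT, where the WT OGAP libraries that chose it enter. Over both states the median was 0.30, with 10 passing as higher and 1 as lower. Together these were 31.4% of the 35, against 17.7% of all windows. DESeq2 called 5 (14.3%, against 7.27% of all windows). The calls of ENSG00000188033, TNPO2 and GADD45GIP1 (higher) and JUNB (lower) held under every alternative run, and the others did not. Over both states 32 of the 35 lay below DHPS and 3 above, again with the libraries that chose it. The difference between states had a median of -0.19 and no call. For OGAP over input in KD and for this difference, 6 and 2 of the 35 had an unadjusted p under 0.05, against 12.6% and 8.14% of all windows.

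**Figure D3:**
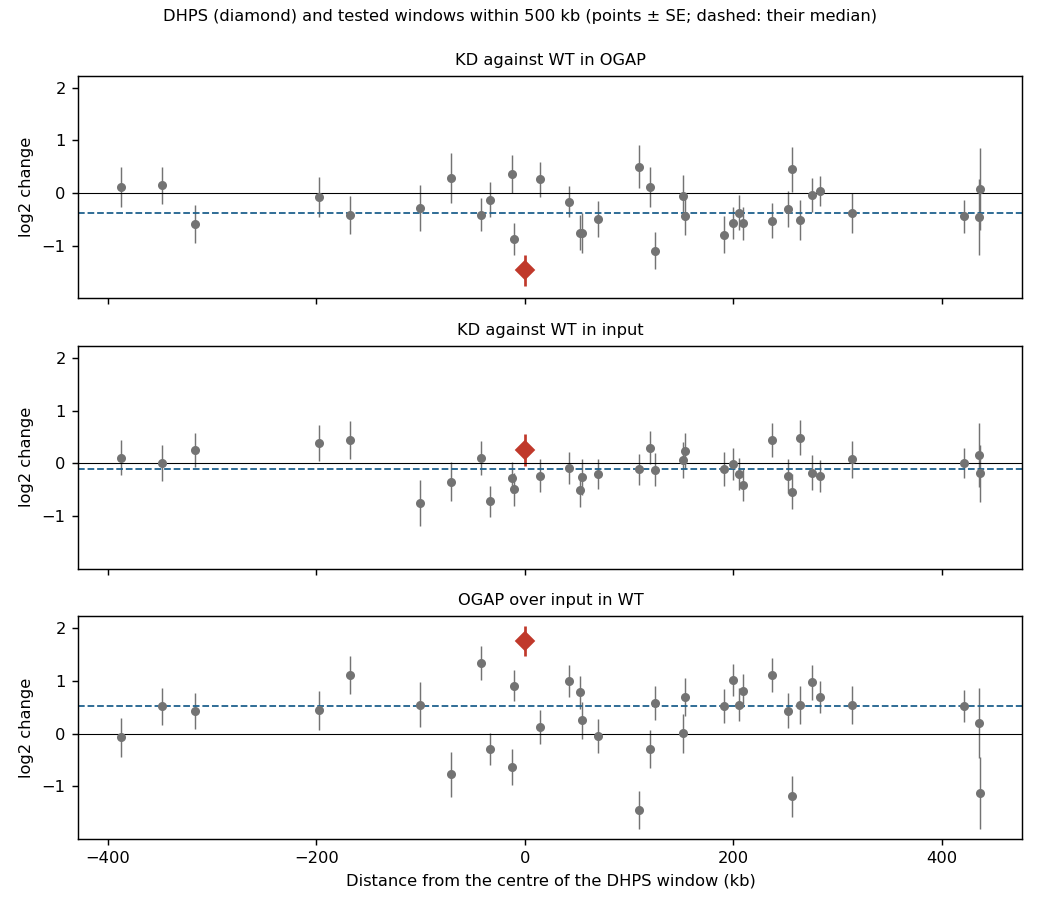
Log2 change (points) with its SE (bars) of the tested promoter windows within 500 kb, by distance from the centre of the DHPS window in kb, for KD against WT in OGAP (top), KD against WT in input (middle) and OGAP over input in WT (bottom), with DHPS as a diamond and a dashed line at the median of the 35 windows. DHPS lies below its neighbours at the top, where their median is -0.37, among them in the middle, and above them at the bottom, where their median is 0.52. The top and bottom panels use libraries that chose DHPS, so its place there is a description.

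The closest windows did not share the DHPS values in full. On the side of lower coordinates the nearest was ENSG00000105583, 10.5 kb away and overlapping another window. It had 82.9 and 69.97 CPM in KD OGAP, 139 and 143 in WT OGAP, 50.4 and 56.4 in KD input, and 73.2 and 76.5 in WT input. Its groups were ordered as for DHPS in the pull-down, with a KD over WT log2 change of -0.87 ± 0.31 (adjusted p = 0.297, edgeR). Next came ENSG00000269590 (12.5 kb), at 0.37 ± 0.36. It was named WDR83OS by position alone, and that name may belong to another window nearby. The windows at the starts of WDR83 and MAN2B1 overlap each other and held too few reads for testing, and ENSG00000269242 (33.5 kb) had -0.12 ± 0.33. On the other side the nearest was FBXW9, an F-box gene 14.7 kb away, with 91.9 and 99.3 CPM in KD OGAP and 90.9 and 68.7 in WT OGAP. FBXW9 did not lean the way of DHPS, with a log2 change of 0.26 ± 0.33. TNPO2, a nuclear import receptor gene at 42.1 kb, had -0.16 ± 0.29 and TRIR at 52.9 kb had -0.75 ± 0.33. GET3, at 55.2 kb, had -0.76 ± 0.38 and BEST2, at 69.8 kb, had -0.49 ± 0.34. None of these passed the threshold in KD against WT in OGAP.

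The lowest neighbours in KD against WT in OGAP were RNASEH2A, ENSG00000105583 and ENSG00000095066. RNASEH2A, which encodes the catalytic subunit of ribonuclease H2, had 66.7 and 42.9 CPM in KD OGAP and 145 and 92.5 in WT OGAP (log2 change -1.09 ± 0.35, adjusted p = 0.247, edgeR). ENSG00000095066 had -0.79 ± 0.35. The highest were JUNB, an AP-1 subunit gene, at 0.50 ± 0.41, and CALR, which encodes the chaperone calreticulin, at 0.45 ± 0.42. Next was ENSG00000269590, the window named WDR83OS by position. Of 9 windows around DHPS with a value below 0 for OGAP over input in WT, JUNB and CALR were the 2 that passed the threshold, at -1.44 ± 0.36 (adjusted p = 0.00361) and -1.19 ± 0.38 (adjusted p = 0.0256). The JUNB call ended without WT OGAP replicate 1 (-1.25, adjusted p = 0.0558). The CALR call ended without that library (-0.89), without WT input replicate 2 (-0.94) and with DESeq2 (-1.2). At the edge of the 500 kb, ZNF44 just inside had 0.12 and ZNF136 just outside had 0.10. On the other side IER2 just inside was not tested, and ENSG00000141837 just outside had -0.63.

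The reads of DHPS were also set against those of its surroundings, as a description in the libraries that chose it. Of all reads in the DHPS window and the 45 windows around it, DHPS took 2.47% (Wilson 95% interval 1.77 to 3.43%) and 3.71% (2.76 to 4.98%) in KD OGAP. It took 6.60% (5.30 to 8.20%) and 6.47% (5.23 to 7.98%) in WT OGAP. In KD input the shares were 2.88% (2.15 to 3.84%) and 3.92% (3.04 to 5.04%), and in WT input 2.88% (2.18 to 3.80%) and 2.50% (1.89 to 3.31%). The intervals cover counting error only. The WT OGAP shares were higher than those of the other 6 libraries, which the choice of DHPS fixes in part, since it used the WT OGAP and KD OGAP reads. Group means were 3.09 ± 0.877% in KD OGAP, 6.54 ± 0.0919% in WT OGAP, 3.40 ± 0.735% in KD input and 2.69 ± 0.269% in WT input (SD, n = 2 each). The surroundings differed too. DHPS and its neighbours together took 0.246 and 0.252% of promoter reads in KD OGAP, 0.308 and 0.311% in WT OGAP, 0.224 and 0.225% in KD input, and 0.229 and 0.244% in WT input. With libraries scaled by the neighbours alone, the DHPS log2 change of KD against WT in OGAP was -1.15 rather than -1.46, and it no longer passed the threshold that chose it.

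**Figure D4:**
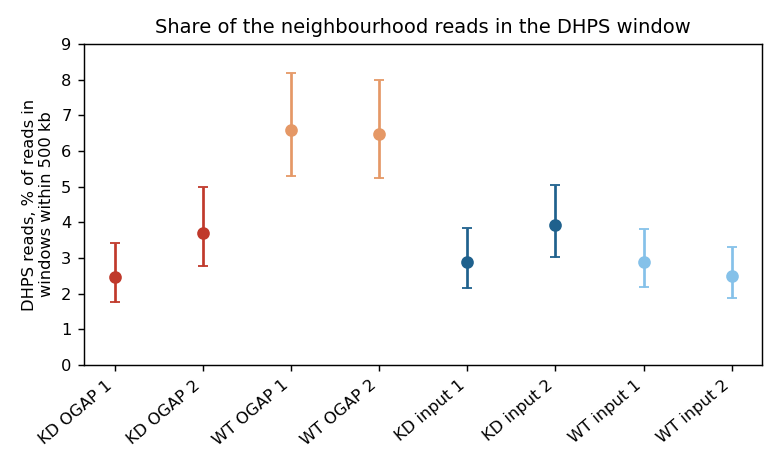
Share of the reads of DHPS and its 45 neighbouring windows that fell in the DHPS window, in percent, by library, with Wilson 95% intervals for counting error. Both WT OGAP libraries lie above 6% and the other 6 between 2.47 and 3.92%.

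The windows whose profile was most like that of DHPS were sought over all 8 libraries among 8600 windows at or above the median mean count. By Pearson correlation of log2 CPM these were ENSG00000198712 on the mitochondrial chromosome (0.974), ZNF628 (0.972), PGD (0.968), CCDC188 (0.961) and PRM1 (0.960). The median over all windows compared was -0.07. A likeness over 8 libraries with a single high group is a description and says nothing of shared function. PGD, which encodes a pentose phosphate enzyme, had 68.5 and 85.8 CPM in KD OGAP, 111 and 119 in WT OGAP, 67.7 and 71.6 in KD input, and 74.6 and 62.3 in WT input. PRM1, a sperm protamine gene, had 59.5 and 88.0 CPM in KD OGAP, 134 and 135 in WT OGAP, 59.1 and 60.9 in KD input, and 47.5 and 55.8 in WT input. Both shared with DHPS the high pair in WT OGAP, at smaller size. ENSG00000198712 did so weakly, with a KD over WT log2 change in OGAP of -0.33, and its window overlaps another. Among the 4 members, DHPS correlated at 0.56 with DOHH, 0.28 with EIF5A and -0.55 with EIF5A2.

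The pathway around hypusine was taken from 3 lists. Polyamine metabolism, which supplies the spermidine that DHPS consumes, had 22 genes, of which 16 had a named window and 15 were tested. Other translation factors and eIF5A transport had 20, 17 and 14. Diphthamide synthesis, the other amino acid made on a single translation factor, had 7, 7 and 5. In KD against WT in OGAP no window of the 3 lists passed the threshold in edgeR or DESeq2. The unadjusted edgeR p was under 0.05 for 3 polyamine windows, 2 translation windows and 0 diphthamide windows (10.6% of all windows). Medians were -0.12, -0.10 and -0.19 on the log2 scale, against 0.01 over all windows. None passed in edgeR or DESeq2 between the inputs, for OGAP over input in KD, or for the difference between states. Unadjusted edgeR p-values under 0.05 there numbered 2, 1 and 1 in the polyamine list, 0, 1 and 1 among translation factors, and 0 in the diphthamide list. The shares of all windows were 4.41% between the inputs, 12.6% for OGAP over input in KD and 8.14% for the difference.

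The windows with the lowest p in each direction of KD against WT in OGAP, all short of the threshold, lay on both sides of zero. SLC22A16, a carnitine and polyamine transporter gene, held 16 and 36 reads in KD OGAP and 32 and 46 in WT OGAP (log2 change -0.99 ± 0.38, adjusted p = 0.354, edgeR). ODC1, which encodes the first enzyme of polyamine synthesis, held 34 and 15 reads in KD OGAP and 29 and 36 in WT OGAP (-0.87 ± 0.36, adjusted p = 0.379). SRM, spermidine synthase, held 51 and 26 reads in KD OGAP and 17 and 13 in WT OGAP (0.89 ± 0.39, adjusted p = 0.404). AMD1, which makes the aminopropyl donor, had 0.49 ± 0.44. Among translation factors, XPO4, the exportin that carries eIF5A out of the nucleus, had -0.88 ± 0.34, and EIF1AX, an initiation factor gene, had -1.17 ± 0.38. The release factor genes ETF1 and GSPT1 had 0.59 ± 0.43 and 0.48 ± 0.44. In diphthamide synthesis the values were 0.62 ± 0.46 for DPH5, 0.61 ± 0.47 for DPH6, -0.53 ± 0.32 for DPH7 and -0.33 ± 0.37 for DPH2.

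**Figure D5:**
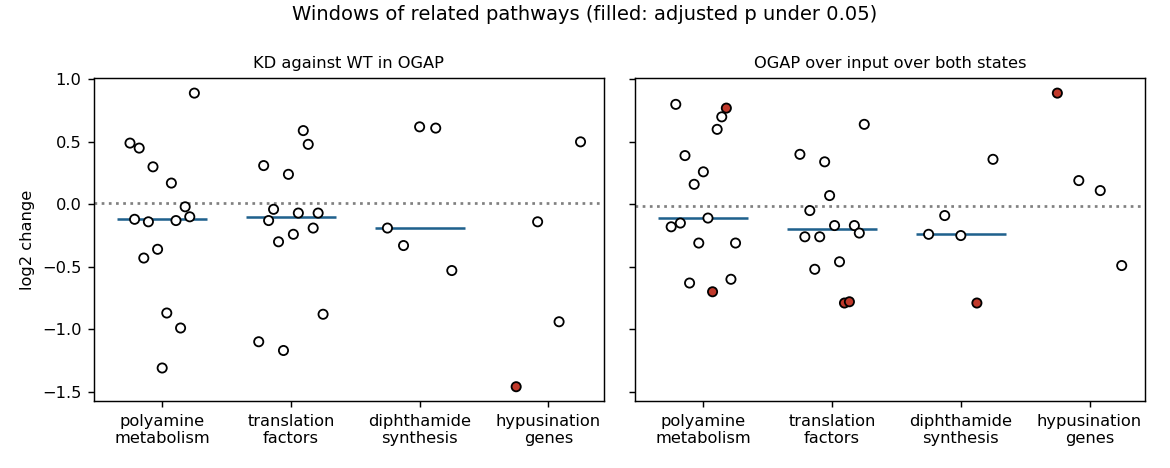
Log2 change of the tested windows of the 3 pathway lists and of the 4 hypusination genes for KD against WT in OGAP (left) and OGAP over input over both states (right), with a point for each window, filled where the adjusted edgeR p is under 0.05, a bar at each list's median and a dotted line at the median of all tested windows. Windows of the lists lie between -1.31 and 0.89 on the left, where the median of all windows is 0.01. DHPS, which was chosen from that contrast, lies below them at -1.46.

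OGAP over input in WT called a few windows of the lists. In the polyamine list 0 of 15 were higher and 1 was lower. This was PAOX, an oxidase that recycles acetylated polyamines, with 17 and 35 reads in WT OGAP and 107 and 121 in WT input (log2 change -1.09 ± 0.30, adjusted p = 0.00872, edgeR). Of 14 translation windows, XPO4 was higher (1.05 ± 0.33, adjusted p = 0.0214) and ETF1 lower (-1.19 ± 0.39, adjusted p = 0.0294), and of 5 diphthamide windows none passed. XPO4 held 44 and 43 reads in WT OGAP and 59 and 27 in WT input. The PAOX call ended without WT OGAP replicate 1 (-0.72) or WT input replicate 2 (-1.04). The XPO4 call ended without either WT OGAP library (0.97 and 1.12), without WT input replicate 2 (0.57) and with DESeq2 (1.05). The ETF1 call ended without WT OGAP replicate 1 (-0.87), without either WT input library (-1.30 and -1.10) and with DESeq2 (-1.21). Over both states, SLC3A2, which encodes a shared chain of amino acid transporters, rose by 0.77 ± 0.22 in the pull-down (adjusted p = 0.00732, edgeR). PAOX (-0.70 ± 0.21), ETF1 (-0.79 ± 0.27), GSPT1 (-0.78 ± 0.27) and DPH6 (-0.79 ± 0.29) were lower. DESeq2 called none of these 5. SLC3A2 also fell short without WT OGAP replicate 2 (0.60) and PAOX without WT OGAP replicate 1 (-0.52). ETF1 (-0.76 to -0.63), GSPT1 (-0.81 to -0.69) and DPH6 (-0.69 to -0.47) each fell short without any of 4, 5 and 4 single libraries, in that order. Short of the threshold over both states were SLC22A16 (0.70 ± 0.27), XPO4 (0.64 ± 0.24), EIF1AX (0.34 ± 0.26), DPH7 (0.36 ± 0.22), MAT2A, which makes S-adenosylmethionine (-0.63 ± 0.25), and DPH1 (-0.24 ± 0.24). The 34 tested windows of the 3 lists together gave 3 calls in WT (8.82%, against 13.7% of all windows) and 5 over both states (14.7%, against 17.7%).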

How the data were processed

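The authors deposited a table of whole-number read counts, 1 row per promoter window and 1 column for each of 8 libraries. BWA 0.7.17-r1188, bedtools, featureCounts, MACS2 and hg38 are named in the submitters' processing notes, without their settings. The 2 deposited coverage profiles summed over genes were not used. The table carries no symbols. A window took the symbol of a protein-coding RefSeq gene (GRCh38.p14) on its strand where that gene alone had a start, the end of its extent or a promoter-table start, at most 500 bp from its centre. DHPS was named by its extent (23 bp). This named 15648 of 19957 windows (78.4%, against 1.11% after a shift of 200 kb). Names near readthrough genes may be wrong.

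Counts were fitted in edgeR 4.0.16 (R 4.3.3, quasi-likelihood, TMM, filterByExpr) with 4 group means over 8 libraries, and p-values were Benjamini-Hochberg adjusted over 17130 windows (threshold 0.05). The fit was tested on simulated data. SE is approximate, from the size of the log2 change divided by root F. With 98.4 prior against 4 residual degrees of freedom, a window's p and SE say little about agreement of its own libraries. DESeq2 1.42.0 was an alternative. Replicate numbers in the labels did not pair the libraries. Members, lists and rules were chosen with earlier results of these data known. Named windows were the members, NUMA1, the 5 nearest on each side, the 3 highest and 3 lowest neighbours, those at the 500 kb edge, and the 5 most like DHPS. From the lists came called windows and the 2 lowest p in each direction.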

Additional observations from a re-analysis of the deposited data

How the results depend on the processing

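The count of 6 windows past the threshold for KD against WT in OGAP was 12 without the count filter, 11 with the compared groups alone, 0 with DESeq2 (898 at an unadjusted p under 0.05) and 0 to 11 with a library left out. For OGAP over input in WT, 2346 became 884 with DESeq2 and 890 to 2442 with a library left out. In KD, 126 became 40 and 8 to 160, and over both states 3039 became 1246 and 1776 to 2798. For the difference between states, 1 became 3 with DESeq2 size factors, without the filter or without overlapping windows, 0 with DESeq2 and 0 to 6 with a library left out. Between the inputs it was 0 under every setting run. The DHPS log2 change of KD against WT in OGAP was -1.79 to -1.15 over 17 alternatives. These values share the libraries that chose DHPS and test nothing, and the threshold that chose it was missed in 5: with neighbourhood scaling (-1.15), DESeq2 (-1.49), and with replicate 1 (-1.45) or replicate 2 (-1.47) of WT OGAP or replicate 1 of KD OGAP (-1.16) left out. Unscaled, DHPS had 202.5 CPM in WT OGAP. The cause of these shifts was not tested. Libraries with the same replicate number did not deviate together (correlations -0.039 to 0.025). With the replicate number as a block the counts were 5, 0, 2181, 97, 1 and 2837 for KD against WT in OGAP and in input, OGAP over input in WT and in KD, the difference between states and both states, and the DHPS value was -1.46. The DPH6 call over both states ended under the block. The median of the windows around DHPS for KD against WT in OGAP was -0.41 within 250 kb and -0.29 within 1 Mb. With 8 to 80 reads per member window and library, 95% intervals of a change between 2 groups spanned over 1 log2 unit, so that small differences were not detectable at this depth.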
